A study of Mus musculus with 8 samples.

Results

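The α-defensin genes of the mouse, called cryptdins in older work, together with their annotated pseudogenes and a few defensin-related genes, were described in RNA of sorted Paneth cells. Members were all genes whose symbol starts with Defa, and those among 9 further symbols (AY761184, Gm14851, Gm15292, Gm7849, Gm7861 and 4 older names) that the annotation still uses. This gave 44 of the 53801 genes counted, of which 39 carry a Defa symbol, 17 of these being pseudogenes named Defa-ps, and 5 carry one of the further symbols. The other 4 symbols are older names of Defa30, Defa27, Defa32 and Defa34, which the Defa rule already took in.

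Viable EpCAM+ Cd24+ cells, labelled as Paneth cells, had been sorted from small intestinal crypts of 4 β-catGOF; Mll1+/- mice (controls 1 to 4 here) and 4 β-catGOF; Mll1-/- mice (knockouts 1 to 4), to ask what loss of the histone methyltransferase Mll1 (gene Kmt2a) changes in these cells when Wnt signalling is high. All mice carried the Lgr5-EGFP-IRES-CreERT2 allele, and both groups carried the β-catenin allele that loses exon 3 on recombination, so that no sample had unaltered β-catenin. The controls had 1 floxed copy of Mll1 and the knockouts had both copies floxed. Mice were 4 to 6 wk old at induction, received 1 mg of tamoxifen on 3 consecutive days, and cells were taken 10 d later. The genotypes are those of the series' design and the study's results, whereas the methods paragraph on the sort does not mention β-catGOF. Cre is driven by the Lgr5 promoter and thus acts in stem cells and reaches Paneth cells by descent, and the sort used surface markers and not a marker of recombination. The same number stands in the sample titles of control 4 and knockout 4 and was given no role here.

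The 8 libraries were made from polyadenylated RNA amplified by PCR (Smart-seq2), and held between 13037832 and 14380240 counts of uniquely mapped reads on genes. Knockout 3 stood apart from the other libraries, with a TMM scaling factor of 0.632 against 0.822 to 1.34, a count on 19662 genes against 22623 to 26074, and 2.04% of counts on mitochondrial genes against 3.26% to 8.78%. Kmt2a, the targeted gene, had 268 to 719 counts in the controls and 328 to 523 in the knockouts, with a log2 fold change of −0.06. A sum over all exons does not show whether a floxed exon was lost. By immunohistochemistry, the study reported that all crypt cells of the knockouts, Paneth cells among them, lacked Mll1 when cells were sorted. Of the defining markers of the sorted cell type, all 6 (Lyz1, Mmp7, Ang4, Itln1, Pla2g2a and Sox9) were detected in every library, with summed levels of 46335 to 127260 normalized CPM in the controls and 45054 to 203417 in the knockouts. The labels' numbers form 2 consecutive runs, the first with controls 1 and 2 and knockouts 1 and 2, the second with the other 4 libraries, and values are given within the runs where they differ.

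Paneth cells at the crypt base store α-defensins in granules and release them into the crypt lumen, where these small cationic, cysteine-rich peptides kill bacteria. In the mouse, the matrix metalloproteinase Mmp7 cuts the inactive propeptides to active ones. Cryptdin-related sequences, to which AY761184 and its near copies belong, have the same kind of leader followed by a different cysteine-containing peptide. Wnt signals acting through Tcf7l2, and the transcription factor Sox9, are part of the Paneth cell programme in which these genes are transcribed.

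The genes lie together on mouse chromosome 8 (GRCm38). Of the 44 members, 40 lie between 21025545 and 21750000 and the other 4, all pseudogenes, between 19210462 and 19474732. On the plus strand there were 37 members and on the minus strand 7. A coding sequence was annotated in 27 members, each in a transcript of 2 exons, and no member shared exon bases with another gene. Grouped by coding identity, with each gene joined to any other at 95% or more, the 27 formed 7 groups, named below after their most abundant gene. The Defa24 group held Defa24, Defa30, Defa17, Defa3, Defa23 and Defa31, and the AY761184 group held AY761184, Gm14851, Gm7849, Gm7861 and Defa29. The Defa20 group held Defa20, Defa32, Defa2 and Defa33, and the Defa22 group Defa22 and Defa21. The Defa35 group held Defa35, Defa34, Defa5, Defa36 and Defa37, and the smallest groups were Defa26 with Gm15292 and Defa27 with Defa25 and Defa28.

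The last 120 bases of the annotated coding sequence, stop codon included, are shown for members of the 4 most abundant groups, because how alike the copies are decides what a count on one of them can mean. Capitals mark bases that differ from the first sequence of the same group, and the first of each group has none.
Defa24: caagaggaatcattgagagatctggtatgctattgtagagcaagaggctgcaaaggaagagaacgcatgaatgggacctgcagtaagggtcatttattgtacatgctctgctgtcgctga
Defa30: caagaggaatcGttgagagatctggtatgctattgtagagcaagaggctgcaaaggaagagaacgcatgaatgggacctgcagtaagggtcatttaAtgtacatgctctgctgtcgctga
Defa17: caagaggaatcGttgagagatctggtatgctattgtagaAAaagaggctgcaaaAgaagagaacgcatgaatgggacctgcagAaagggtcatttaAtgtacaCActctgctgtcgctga
Defa22: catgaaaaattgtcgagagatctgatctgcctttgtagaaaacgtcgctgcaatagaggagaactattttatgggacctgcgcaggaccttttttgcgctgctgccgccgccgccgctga
Defa21: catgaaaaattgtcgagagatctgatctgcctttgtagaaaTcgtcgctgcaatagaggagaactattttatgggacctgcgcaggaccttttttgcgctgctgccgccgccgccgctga
Defa20: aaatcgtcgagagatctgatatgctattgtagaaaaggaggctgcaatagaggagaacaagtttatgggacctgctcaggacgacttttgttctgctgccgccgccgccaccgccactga
Defa32: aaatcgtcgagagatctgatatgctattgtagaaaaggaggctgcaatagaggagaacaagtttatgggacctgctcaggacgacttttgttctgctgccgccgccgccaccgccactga
AY761184: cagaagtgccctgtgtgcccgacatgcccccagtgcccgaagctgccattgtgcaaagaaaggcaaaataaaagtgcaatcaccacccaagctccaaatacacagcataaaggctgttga
Gm14851: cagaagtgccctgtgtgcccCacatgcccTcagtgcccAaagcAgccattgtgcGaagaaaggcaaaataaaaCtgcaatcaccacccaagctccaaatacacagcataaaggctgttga
Gm7849: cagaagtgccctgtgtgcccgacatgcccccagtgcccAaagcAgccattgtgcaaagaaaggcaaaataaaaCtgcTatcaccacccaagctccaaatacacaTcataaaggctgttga

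In this stretch Defa30 differed from Defa24 at 2 bases and Defa17 at 8, Defa21 differed from Defa22 at 1, and Defa20 and Defa32 did not differ. Over the whole coding sequence Defa24 and Defa30 were 98.6% identical, Defa21 and Defa22 99.3%, and AY761184 and Gm14851 96.9%. Defa20 and Defa32 had the same coding sequence throughout, as did Gm7849 and Gm7861. Between groups, identity was 82.9% for Defa24 and Defa20 and 63.1% for Defa24 and AY761184. The groups were not all set far apart, since Defa23 and Defa27, of different groups, were 94.0% identical, and the least alike pair within a group, Defa25 and Defa28, was at 94.1%. The coding sequences of the AY761184 group were 351 bases long, and those of the other groups 279 to 288.

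Because the authors counted uniquely mapped reads, a member was measured only where its sequence tells it from its copies. Every stretch of 50, 75 or 150 bases of each member's transcripts was therefore looked up in all annotated transcripts. Of the stretches of 75 bases, 93.3% were unique to Defa24, 93.5% to AY761184, 79.3% to Defa30 and 69.0% to Gm14851. For Defa21 and Defa22 43.6% and 43.8% were unique, which rose to 89.2% and 89.3% with 150 bases. For Defa17 only 8.7% were unique at 75 bases and 11.3% at 150, for Gm7861 4.2% and 5.0%, and for Gm7849 none at either length. Defa20 and Defa32 had no unique stretch of 75 bases and 0.4% of 150. Nonetheless, the 9 members with no unique stretch of 75 bases held between 4.13% and 8.80% of the members' counts in a library. By the authors' account, reads with several matches were not counted. The length of the reads, and how the aligner judged a match to be unique, are not given in the sources used here. In the tail, Defa31 and Defa37 had no unique stretch of 75 bases, Defa5 2.6%, Defa36 4.9%, Defa23 10.1% and Defa3 12.2%. Values of these 6, of Defa17, Gm7849 and Gm7861, and of the whole Defa20 group are thus uncertain gene by gene. The sum over a sequence group depends less on how reads were split between its copies, but it can still share reads with a group that is nearly as alike.

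**Figure D1:**
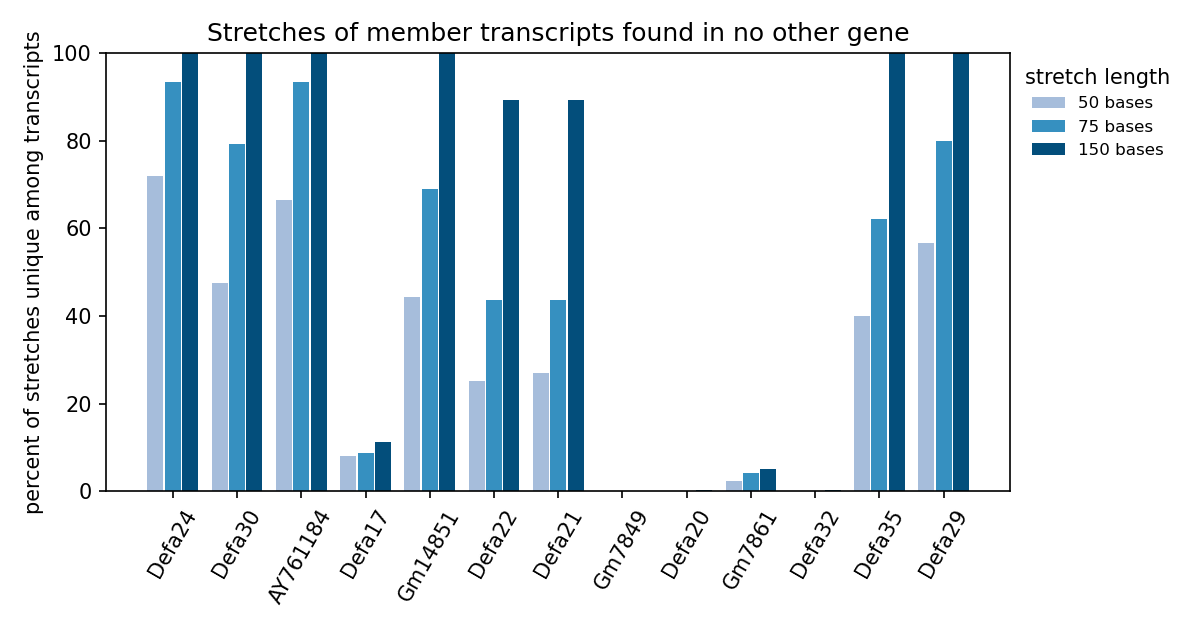
Percent of all stretches of 50, 75 and 150 bases of a member's transcripts that occur in no other gene's transcripts (bars), for the 13 members that each held at least 1% of the members' counts. Defa24 and AY761184 are the members with most unique stretches, 71.9% and 66.5% at 50 bases, Defa30 rises from 47.6% at 50 bases to 100% at 150, and Gm7849, Defa20 and Defa32 lie at or near 0 at every length shown.

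Members filled much of the top of each library. Between 5 and 7 of the 10 genes with the most counts were members, and between 19 and 23 of the top 50. Their share of all gene counts was 46.9%, 58.8%, 61.5% and 62.6% in controls 1 to 4, and 52.0%, 51.2%, 62.7% and 55.5% in knockouts 1 to 4. The Wilson 95% interval of each share was at most 0.0271 percentage points to either side, which covers counting error only, since PCR copies were counted separately. Knockouts 1, 2 and 4 lay within the range of the controls and knockout 3 just above its upper end, so that the genotypes overlapped. The controls averaged 57.5% ± 7.19 and the knockouts 55.3% ± 5.22 (SD, n = 4 each). The difference, knockouts minus controls, was −1.25 percentage points within the first run and −2.96 within the second. Without mitochondrial counts in the total, the mean shares were 60.6% and 58.2%.

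**Figure D2:**
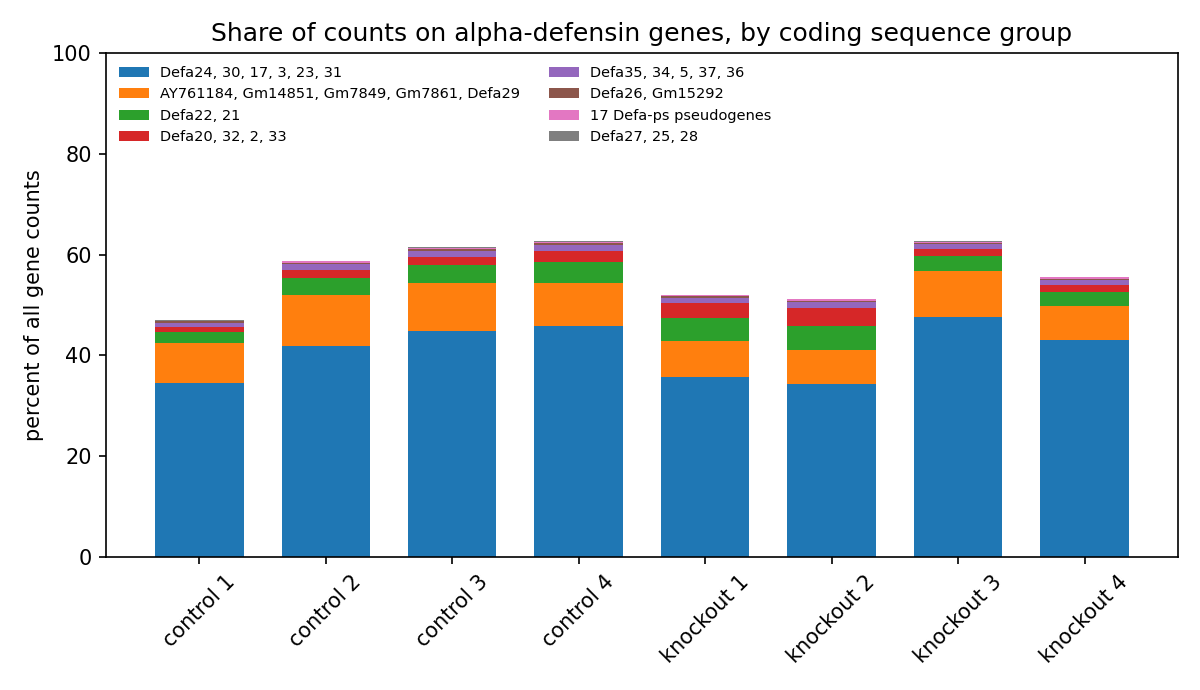
Percent of all gene counts of each library (bars) on the 44 members, stacked by coding sequence group with the pseudogenes apart. The stacks reach from 46.9% in control 1 to 62.7% in knockout 3, and the bottom segment, the Defa24 group, is the largest in each library.

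Defa24 was the most abundant gene in all 8 libraries, by counts and by counts per kb of exon length. It alone held 23.1%, 27.7%, 32.7% and 31.7% of all counts in controls 1 to 4 and 24.9%, 24.4%, 32.3% and 29.6% in knockouts 1 to 4. Defa30 had rank 2 or 3 by counts and rank 2 per kb in every library, and AY761184 had ranks 4 to 6 by counts and rank 3 per kb. Per kb, Defa24 was 2.29 to 3.16 times as abundant as Defa30. The next members by counts per kb, Defa17, Gm14851, Defa22 and Defa21, had ranks between 4 and 9 that changed places from library to library, so that their order was not fixed. Defa20, Gm7849, Gm7861, Defa32, Defa35 and Defa29 followed, with ranks per kb between 9 and 21. Together, the 13 members with at least 1% of the members' counts made up 97.3% of them on average.

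The remaining members formed a long tail. Defa3, Defa2, Defa26, Defa34 and Gm15292 each held 0.300% to 0.540% of the members' counts. The 17 pseudogenes together held between 0.341% and 0.484% of the members' counts, led by Defa-ps7. Only 9 of them passed the filter on low counts. In all, 30 members had 1000 counts or more in each library. At the other end, Defa-ps8, Defa-ps12 and Defa-ps14 had no count in any library. For Defa-ps12 and Defa-ps14 this allows at most 3 counts, or 0.172 to 0.352 normalized CPM in a library, whereas Defa-ps8 has no unique stretch at any length, so that its 0 sets no limit on its level. Defa-ps3, Defa-ps9, Defa-ps11, Defa-ps13 and Defa-ps15 had at most 12. A pair of relatives outside the symbol rule, AY761185 and Gm15293, had 2087 to 3698 and 2921 to 5207 counts.

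No member passed edgeR's quasi-likelihood test between the genotypes. Of the 44 members, 36 passed the filter on low counts, and 0 of these 36 reached both limits, an adjusted p no higher than 0.05 and a log2 change no smaller than 0.5 in either direction, where 0.186% of all 13439 tested genes did. At 10% FDR 0 members passed (0.283% of all genes), and 0 had an unadjusted p under 0.05 (6.88% of all genes), though 5 of 41 did without the filter on low counts, where 8.33% of all genes did. These 5 were Defa36, AY761184, Defa29, Defa37 and Defa31, all lower in the knockouts. DESeq2's Wald test also gave 0 at each of these limits. The smallest adjusted p of a member was 0.788, for Defa37, which has no stretch of its own beside Defa36. The level of α-defensin transcripts per cell and the number of cells that make them cannot be told apart in such pooled cells.

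Most members were nevertheless slightly lower in the knockouts on average. The log2 fold change was below 0 in 32 of 36 members, against 49.1% of all genes tested. Their median was −0.25, against 0.01 over all genes tested, with a range from −0.55 (Defa36) to 0.25 (Defa32). The 4 members above 0 were Defa2, Defa20, Defa32 and Defa33, which are the 4 members of the Defa20 group and share most of their sequence. The standard errors of single members, from 0.22 to 0.46, were as large as most of the changes. Because the members lie in a cluster, share reads and were measured in the same 8 libraries, their signs are not independent, and no test was made over them.

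**Figure D3:**
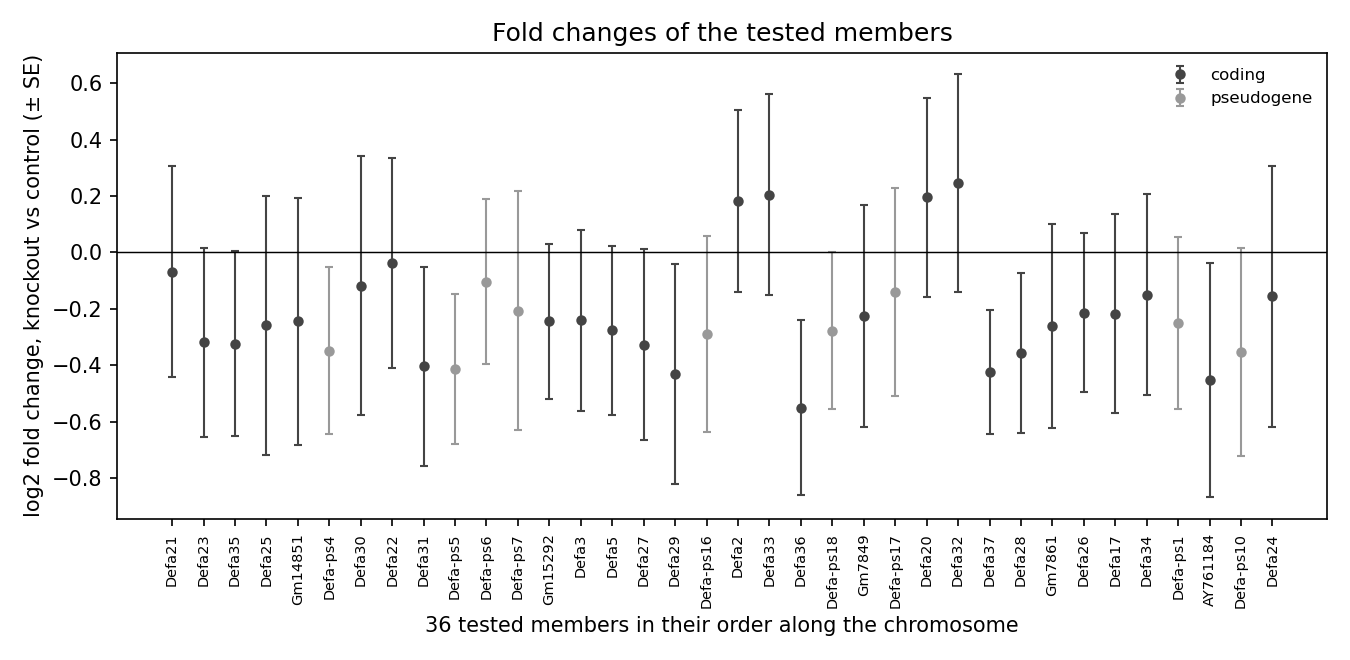
Log2 fold change of the knockouts against the controls for the 36 tested members (points, dark for coding genes and light for pseudogenes) with their standard errors (bars), in the members' order along the chromosome. The points lie between −0.55 and 0.25, and the 4 points above 0 are Defa2, Defa33, Defa20 and Defa32.

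For the 13 most abundant members the levels in each library are given as normalized CPM, that is CPM on library sizes adjusted by TMM. This scaling weighs on all of them alike: in knockout 3, whose factor was the lowest, the members' summed level was 990972 normalized CPM although their share of the counts, 62.7%, was about that of control 4, where the sum was 710994.

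Defa24 was at 200839, 303134, 397328 and 360225 normalized CPM in controls 1 to 4 and at 194862, 182656, 510974 and 243573 in knockouts 1 to 4. Defa30 was at 78973, 125706, 119313 and 131553 in the controls and at 67153, 57236, 204058 and 91487 in the knockouts. In both genes knockout 3 was the highest of all libraries, the other knockouts lay below most controls, and the genotypes overlapped. The log2 fold changes were −0.16 for Defa24 and −0.12 for Defa30 (standard errors 0.46 and 0.46, adjusted p = 0.989 and 0.995, edgeR), and −0.61 and −0.67 without knockout 3. Without knockout 2 they were on the other side of 0, at 0.0043 and 0.085. Defa17, the other abundant gene of this group, was at 18025, 23499, 24246 and 22378 in the controls and at 14666, 13787, 31925 and 15459 in the knockouts. Here 3 knockouts lay below every control and knockout 3 above every control (log2 fold change −0.22, standard error 0.35, adjusted p = 0.974).

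AY761184 and its copies are cryptdin-related sequences, and AY761184 and Defa29 had the most negative log2 fold changes of the 13 abundant members. AY761184 was at 34563, 55264, 52698 and 42948 normalized CPM in controls 1 to 4 and at 23850, 22677, 63766 and 25100 in knockouts 1 to 4. In all, 3 of the 4 knockouts were thus below the lowest control, and knockout 3 was above the highest. The log2 fold change was −0.45 (standard error 0.41, adjusted p = 0.926, edgeR), and the exact permutation test of the mean log2 level gave p = 0.200 (two-sided). Gm14851 was at 15129, 24617, 28164 and 23414 in the controls and at 12942, 10696, 38767 and 14656 in the knockouts. Gm7849 was at 7601, 13148, 14052 and 13134 in the controls and at 7649, 7340, 18955 and 7056 in the knockouts. Both showed the same arrangement as AY761184 apart from knockout 1 in Gm7849, which was just above control 1. Gm7861 was at 7005, 10887, 10459 and 10137 in the controls and at 6157, 6119, 14283 and 5588 in the knockouts. Defa29 was at 4005, 8075, 9343 and 8110 in the controls and at 4172, 4256, 9776 and 3705 in the knockouts. Again control 1 was the lowest control and knockout 3 the highest knockout. The log2 fold changes of these 4 genes were −0.25, −0.23, −0.26 and −0.43, with standard errors between 0.36 and 0.44.

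The Defa22 and Defa20 groups were arranged differently. Defa22 was at 9492, 17297, 22637 and 23789 normalized CPM in controls 1 to 4 and at 17974, 17841, 24025 and 11468 in knockouts 1 to 4. Defa21 was at 9162, 17833, 21766 and 24527 in the controls and at 18048, 18260, 22382 and 11228 in the knockouts. In these genes the lowest libraries were control 1 and knockout 4, and the fold changes were close to 0 (log2 −0.04 and −0.07, standard error 0.37 each). Defa20 was at 4949, 8997, 9378 and 11421 in the controls and at 10667, 12484, 10996 and 5638 in the knockouts. Defa32 was at 3414, 6981, 8296 and 10108 in the controls and at 9972, 10984, 8538 and 4664 in the knockouts. Knockout 2 was the highest of all libraries in both, and control 1 the lowest. Their log2 fold changes were 0.20 and 0.25 (standard errors 0.35 and 0.39, adjusted p = 0.979 and 0.972). Defa35, of a further group, was at 5513, 9493, 10347 and 10525 in the controls and at 6313, 6148, 10554 and 5654 in the knockouts (log2 fold change −0.32, standard error 0.33, adjusted p = 0.943). In exact permutation tests of the single levels, p lay between 0.200 and 1 for all 13 genes, where 0.0286 is the smallest p that 4 libraries against 4 allow.

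**Figure D4:**
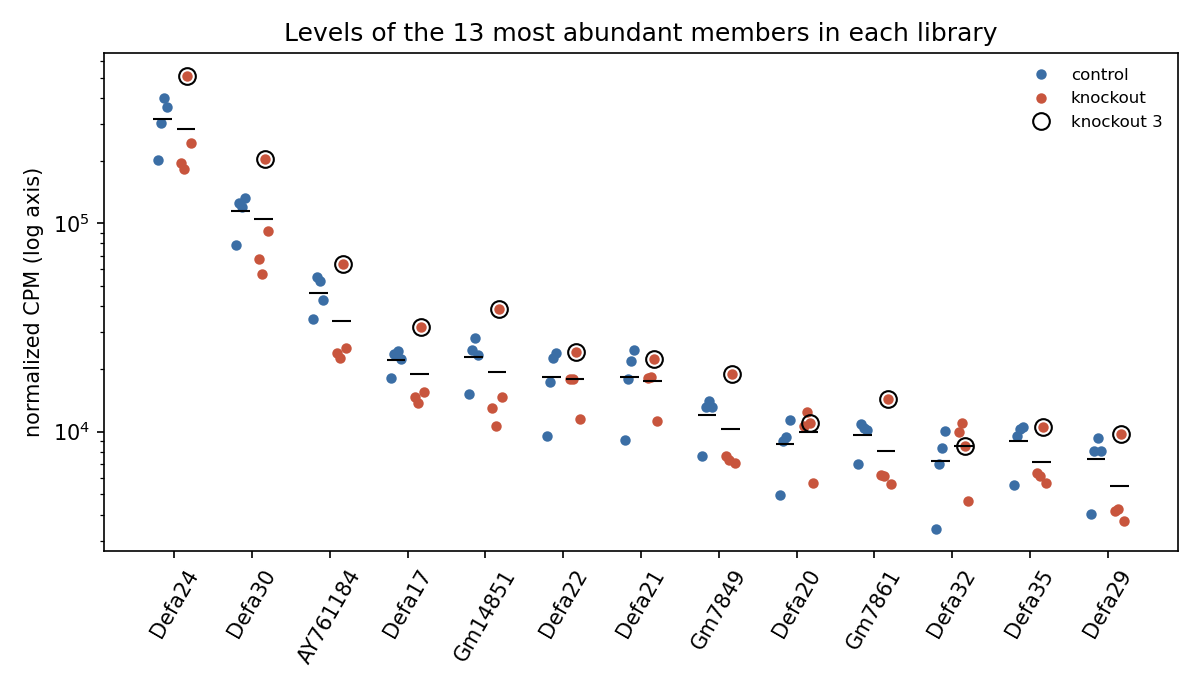
Normalized CPM (log axis) of the 13 most abundant members in the 4 controls (blue points) and 4 knockouts (red points), with the group means (lines) and knockout 3 circled. Knockout 3 is the highest library for 10 of the 13 genes, and the genotypes overlap in all 13.

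When knockout 3 was left out, the log2 fold changes of the abundant members became more negative, with −0.96 for AY761184, −0.87 for Defa29, −0.84 for Gm14851 and −0.59 for Defa17, while those of Defa20 and Defa32 were 0.14 and 0.24. The median over the 36 members without knockout 3 was −0.60, against −0.01 over all genes. In the fit without knockout 3, 21 of the 36 members had an unadjusted p under 0.05, where 11.3% of all genes did, 0 passed the adjusted limits, and the smallest adjusted p was 0.128. When control 1 was left out instead, Defa20 and Defa32 were close to 0, at 0.0058 and 0.018, and the difference in their mean log2 level, knockouts minus controls, was −0.05 and −0.04. In the fit without control 1, 3 of the 36 members had an unadjusted p under 0.05, where 5.98% of all genes did. With all libraries, 0 of the 36 members had groups that did not overlap, where 4.52% of all tested genes did not overlap, 2.59% with higher and 1.93% with lower knockouts. Without knockout 3 there were 5, Gm14851, Defa37, Gm7861, Defa17 and AY761184, all lower in the knockouts, where 11.0% of all genes no longer overlapped. Without control 1, 2 members (Defa-ps5 and Defa36) no longer overlapped, against 7.49% of all genes.

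Within the α-defensin pool the leading gene kept its place in both genotypes, and the shares of some smaller groups varied between libraries. Defa24 made up 49.2%, 47.2%, 53.1% and 50.7% of the members' counts in controls 1 to 4 and 47.9%, 47.7%, 51.6% and 53.4% in knockouts 1 to 4. The means were 50.03% ± 2.52 and 50.13% ± 2.80 (SD, n = 4 each), a difference of 0.0941 percentage points that was far smaller than the spread (exact permutation test, p = 0.971, two-sided). The effective number of members, the number of equally abundant genes that would give the same evenness (the exponential of the Shannon entropy), was 6.04, 6.49, 5.90 and 6.14 in controls 1 to 4 and 6.94, 7.23, 5.57 and 5.42 in knockouts 1 to 4. The controls thus lay close together at 6.14 ± 0.252, and the knockouts, at 6.29 ± 0.928, fell on both sides of them. In the first run both knockouts were above both controls, and in the second both were below.

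Among the 4 most abundant groups, the Defa20 group had the widest range of shares relative to its size. It made up 2.30%, 2.81%, 2.62% and 3.37% of the members' counts in controls 1 to 4 and 5.59%, 6.81%, 2.23% and 2.52% in knockouts 1 to 4. The Defa22 group made up 4.57%, 5.47%, 5.94% and 6.80% in the controls and 8.86%, 9.42%, 4.68% and 4.97% in the knockouts. In both groups knockouts 1 and 2 were above all other libraries and knockouts 3 and 4 were within or below the range of the controls. The Defa24 group showed the reverse, with 73.7%, 71.2%, 73.0% and 73.0% in controls 1 to 4 and 68.7%, 66.9%, 76.0% and 77.5% in knockouts 1 to 4. Since shares within the pool add up to 100%, these are not separate observations.

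Knockouts 1 and 2 belong to the first run of label numbers and knockouts 3 and 4 to the second. For 3 of the 4 most abundant groups the genotype difference had opposite signs in the runs. For the Defa20 group it was 3.65 percentage points in the first run and −0.620 in the second, for the Defa22 group 4.12 and −1.54, and for the Defa24 group −4.59 and 3.74. The AY761184 group was the exception among the 4 most abundant groups, with 16.7%, 17.4%, 15.3% and 13.7% in the controls and 13.5%, 13.3%, 14.7% and 12.3% in the knockouts. The knockouts minus the controls came to −3.67 percentage points in the first run and −1.06 in the second, and the genotypes overlapped because knockout 3 was above control 4.

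**Figure D5:**
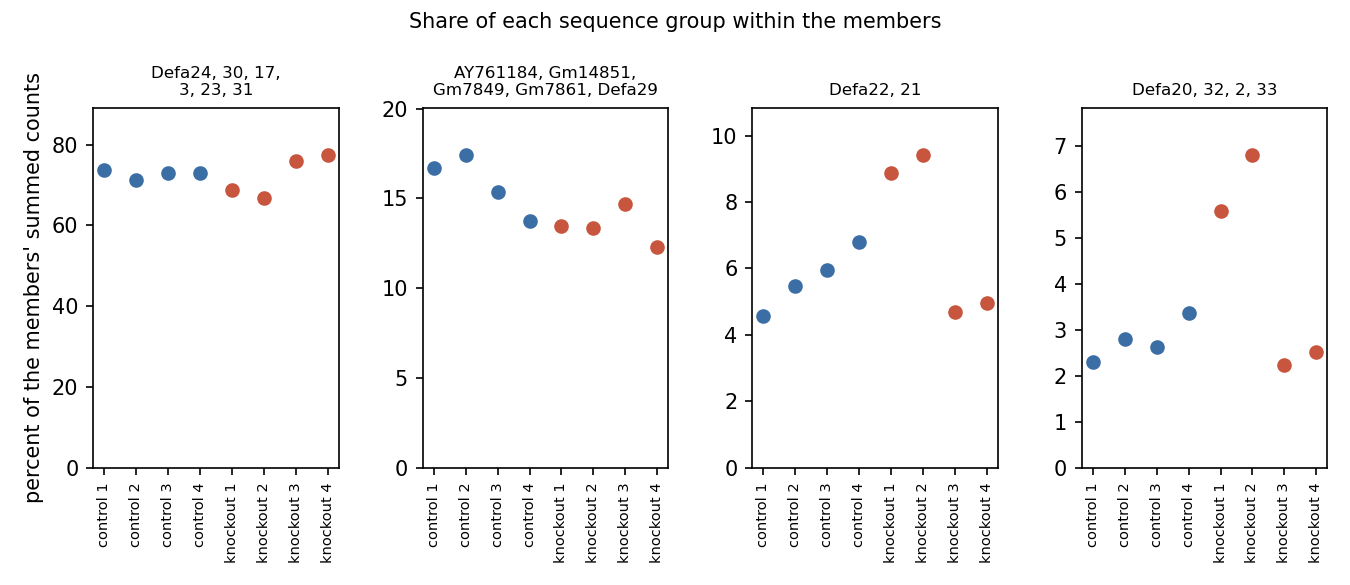
Percent of the members' summed counts on the 4 most abundant sequence groups (1 panel each, axes from 0) in each library, controls in blue and knockouts in red. Knockouts 1 and 2 stand above the other 6 libraries in the Defa22 and Defa20 panels and lowest in the Defa24 panel.

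Copies of a group kept closer ratios in some groups than in others. The ratio of Defa21 to Defa22 counts was between 0.932 and 1.03 in the 8 libraries, and that of Defa32 to Defa20 between 0.690 and 0.935. It was between 0.300 and 0.415 for Defa30 to Defa24, between 0.438 and 0.608 for Gm14851 to AY761184, and between 0.141 and 0.276 for Defa34 to Defa35. As copies share reads, the ratios do not show that each gene was measured on its own. Of the 36 tested members, 1 had shares within the pool that did not overlap between the genotypes, where 3.35% of all tested genes, taken relative to the same sum, did not overlap in either direction and 0.246% with lower knockouts. This was Defa23, lower in the knockouts, with 0.129%, 0.150%, 0.125% and 0.131% in controls 1 to 4 and 0.123%, 0.120%, 0.120% and 0.118% in knockouts 1 to 4. Only 10.1% of its stretches of 75 bases were unique, and Defa31 shared most of the others, so that the share of Defa23 alone is uncertain. Its level gave −0.32 on the log2 scale, knockouts against controls (standard error 0.33, adjusted p = 0.943, edgeR).

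Many members also share sequence before the transcription start. RefSeq gives a start, and the bases before it, for 15 members (GRCm38.p6). Tcf and Lef factors of the Wnt pathway are known to bind the letters CTTTGAA and the close form CTTTGAT, as well as the forms written CTTTGTA and, with another last base, CTTTGTT. At least 1 of these stood on either strand within 250 bases upstream in 12 of these 15, and in 14.8% of 32851 promoters. The other 3 were Gm14851, Gm7849 and Gm7861, which are the members of the AY761184 group among the 15. The letters TATAAA stood on either strand in 14 of 15 and in 12.4% of all promoters. As many of these promoters are near copies, the counts are not independent. The 100 bases upstream are shown for Defa22 and Defa20, whose groups had their highest shares in knockouts 1 and 2, and for Defa23 and Defa35 from other groups, with matches to these letters, on either strand, in capitals.
Defa22: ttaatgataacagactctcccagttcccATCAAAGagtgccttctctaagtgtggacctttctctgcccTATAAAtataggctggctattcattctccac
Defa20: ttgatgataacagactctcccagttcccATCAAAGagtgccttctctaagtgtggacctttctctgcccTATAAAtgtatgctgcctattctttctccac
Defa23: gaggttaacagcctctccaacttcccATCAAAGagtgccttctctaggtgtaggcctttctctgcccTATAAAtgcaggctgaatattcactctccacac
Defa35: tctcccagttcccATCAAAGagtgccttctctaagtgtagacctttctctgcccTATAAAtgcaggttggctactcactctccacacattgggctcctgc

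These windows lie on chromosome 8 at chr8:21162177-21162276 (Defa22, plus strand), chr8:21509158-21509257 (Defa20, plus strand), chr8:21054940-21055039 (Defa23, plus strand) and chr8:21064938-21065037 (Defa35, plus strand). The window of Defa22 was the same as that of Defa21, that of Defa20 the same as that of Defa2, and that of Defa23 the same as that of Defa31. A match of letters is a description of the sequence and does not show that a factor binds there.

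The genes that process, release or regulate α-defensins had no call by the adjusted test either. Of 22 such genes 20 were tested, and 0 passed in edgeR (0 at 10% FDR) or in DESeq2 (0), with 11 above and 9 below 0 and a median log2 fold change of 0.09, against 0.01 over all genes. An unadjusted p under 0.05 was reached by 2 of the 20, where 6.88% of all genes did. These were Ctnnb1, which encodes β-catenin (log2 fold change 0.63), and Bhlha15, a transcription factor of secretory cells (−0.52). Mmp7, the protease that activates the propeptides, was at 1489, 2524, 3658 and 2825 normalized CPM in controls 1 to 4 and at 1700, 1540, 4499 and 2121 in knockouts 1 to 4 (log2 fold change −0.09, standard error 0.39, adjusted p = 0.995, edgeR). Its highest library was knockout 3, as in 23 of the 36 tested members, and its lowest was control 1, an arrangement that 9 of the 36 showed. Kcnn4, a potassium channel of Paneth cell granule release, had between 4.26 and 9.90 normalized CPM in the controls and between 3.64 and 6.53 in the knockouts (log2 fold change −0.32, adjusted p = 0.943). Tcf7l2, the Wnt effector, was at 50.2 ± 7.92 and 53.5 ± 2.22 (SD, n = 4 each, log2 fold change 0.09). Nod2, a bacterial sensor, had 0 to 13 counts in the controls and 0 to 12 in the knockouts and was not tested.

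Other antimicrobial genes of Paneth cells had no call by the adjusted test either. Of 14 listed genes 12 were tested and 0 passed in edgeR or DESeq2 (0 with an unadjusted p under 0.05 in edgeR), with 6 above and 6 below 0 and a median log2 fold change of −0.05. Lyz1, which encodes lysozyme, was at 16100, 36170, 55472 and 56286 normalized CPM in the controls and at 27532, 21471, 72416 and 20152 in the knockouts (log2 fold change −0.21, standard error 0.52, adjusted p = 0.986, edgeR). β-defensins, which are made by many epithelia, were nearly absent. Of 43 Defb genes 30 had no count in any library and 2 were tested, of which Defb1 had 5.39 to 15.4 normalized CPM in the controls, 6.42 to 7.81 in knockouts 1, 2 and 4 and 54.9 in knockout 3 (adjusted p = 0.900, edgeR).

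Summed markers of other cell types had counts in every library, those of goblet cells at high levels. Of 28 such markers tested, 10 had an unadjusted p under 0.05 in edgeR (6.88% of all genes tested), all with lower levels in the knockouts. The summed level of 5 enteroendocrine markers was between 109 and 320 normalized CPM in the controls and between 18.3 and 138 in the knockouts, and Neurod1, a transcription factor of that lineage, passed 10% FDR (log2 fold change −2.27, adjusted p = 0.0630, edgeR). DESeq2's Wald test called Neurod1, Chga, a granule protein of enteroendocrine cells (log2 fold change −1.99, adjusted p = 0.0361), and Fabp2, a fatty acid binding protein of enterocytes (−1.06, adjusted p = 0.0422), where it called 1.03% of all genes. The other markers with an unadjusted p under 0.05 were Chgb and Neurog3 of enteroendocrine cells, Sis of enterocytes, Ascl2 and Olfm4 of stem cells, and Fcgbp and Zg16 of goblet cells. For 4 tuft cell markers the sums were 118 to 337 and 58.2 to 225, for 4 stem cell markers 557 to 1235 and 190 to 792, and for 8 enterocyte markers 93.1 to 278 and 28.5 to 199.9. The 7 goblet cell markers had 9251 to 17723 and 7859 to 18944, most of it from Spink4, while Fcgbp and Zg16 had log2 fold changes of −2.24 and −5.05 (adjusted p = 0.361 and 0.680, edgeR). Of these 7 markers, 3 had a log2 fold change above 0 and 4 below, with a median of −0.03. The 5 immune markers had 4.50 to 14.1 and 2.18 to 13.1, and the 5 stromal markers 3.55 to 5.83 and 4.04 to 6.93. No listed marker of any of these types was at 0 in all libraries. The part of other cell types in the α-defensin values was not tested.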

How the data were processed

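RNA of sorted cells was measured in 8 libraries, with the genotype taken from each label. The numbers 1 to 4 only name libraries and match none of them across genotypes. Each sample title holds a number whose meaning is not given. Control 4 and knockout 4 share it although their genotypes differ, so that the titles alone do not show these 2 to be separate mice. The study gives 4 independent mice per genotype. The authors aligned the reads to mm10 with GSNAP, counted uniquely mapped reads per gene of Ensembl release 92 with featureCounts 1.6.3, and deposited raw counts, whole numbers without normalization. The exon length per gene, in bases, was also deposited by the authors. Spike-in rows (92, at most 7 counts each) were left out. Symbols were matched for 53620 of 53801 genes. The strand setting is not given in the sources used here.

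From the counts, TMM factors and robust quasi-likelihood fits were computed with edgeR 4.0.16 under R 4.3.3 (with limma 3.58.1) for 13439 genes that passed filterByExpr (minimum count 10, minimum total 15), with Benjamini-Hochberg adjustment over all of them. The standard error is the size of the log2 fold change divided by the square root of F. DESeq2 1.42.0 was an alternative here, whereas the study used DESeq2 as its test. Single levels were tested by exact permutation over 70 assignments. The members and gene lists were chosen with earlier results of these data known. Members with a mean of at least 1% of the members' counts, and Mmp7, Lyz1, Nod2, Kcnn4 and Tcf7l2, were named with values, as was each gene of the lists past an adjusted threshold in edgeR or DESeq2. Coding sequences, unique stretches and gene spans came from GENCODE M21 (the spans of 44 of 44 members were the same), promoters from RefSeq. Protein sequences were not used here. Tested on simulated data of this design (13005 genes), edgeR recovered 73.9% of 4-fold and 14.6% of 2-fold changes.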

Additional observations from a re-analysis of the deposited data

Results flagged for a closer look

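Among 48 groups of 4 libraries (13 levels, 8 shares of sequence groups or pseudogenes and 3 other values, each in both genotypes), 8 had a highest or lowest library whose gap to its neighbour took more of the range than Dixon's critical value for 4 samples allows. Chance sets apart about 1 group in 20, and the groups share libraries. In 7 of the 8 this was knockout 3, each time as the highest knockout. It was at 63766 normalized CPM for AY761184 against 22677 to 25100 in the other knockouts, at 31925 for Defa17 against 13787 to 15459, and at 38767 for Gm14851 against 10696 to 14656. For Gm7849 it was at 18955 against 7056 to 7649, for Gm7861 at 14283 against 5588 to 6157, for Defa35 at 10554 against 5654 to 6313, and for Defa29 at 9776 against 3705 to 4256. None of the shares within the pool was set apart in this way. Control 1 was set apart once, at 7601 for Gm7849 against 13134 to 14052.

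In 6 of 24 values, every knockout of the first run of label numbers lay on one side of every control of that run and every knockout of the second run on the other side of its controls. The knockouts minus the controls were 0.824 in the first run and −0.522 in the second for the effective number of members. In percentage points of the members' counts, they were 3.65 and −0.620 for the Defa20 group, 4.12 and −1.54 for the Defa22 group, −4.59 and 3.74 for the Defa24 group, 0.364 and −0.397 for the Defa35 group, and 0.0807 and −0.0690 for the pseudogenes. The difference between the runs was not tested, with 2 libraries of a genotype in each, and the shares depend on each other because they add up to 100%.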

How the results depend on the processing

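The number of members called was 0 under each alternative run: DESeq2's size factors, library sizes without the members, no filter, DESeq2's Wald test, the run of label numbers as a block, 10% FDR, and each library left out. Library totals with no scaling factor, chosen after seeing the data, also gave 0. An unadjusted p under 0.05 was reached by 5 of 41 members with no filter (8.33% of all genes in that fit), by 21 of 36 without knockout 3 (11.3%), by 3 of 36 without control 1 (5.98%), and by 0 in every other of these fits. That scaling moved the median log2 fold change over all genes from 0.01 to 0.25 and the members' median from −0.25 to −0.11, with 27 of 36 below 0. Over the other settings with all libraries the members' median lay between −0.28 and −0.24, and with each library left out between −0.60 and −0.15. The lowest of these was without knockout 3, and the next, −0.42, without control 1. The number of members whose groups did not overlap was 0 with each scaling and between 0 and 5 with each library left out (5 without knockout 3, 2 without control 1). Left out in turn, the libraries moved the difference in the members' share from −5.60 to −0.370 percentage points, that in the share of Defa24 from −0.983 to 1.13, and that in the effective number from −0.162 to 0.442, so that the last 2 changed sign. By counts per kb the difference in the share of Defa24 was −0.00989 percentage points in place of 0.0941 (exact permutation test, p = 1). With other scalings, or as shares within the members, the levels of the 13 abundant members gave 39 values with exact permutation p between 0.0571 (the share of AY761184) and 1. With each library left out they gave 104 values, for which no p was computed and which moved by less than the spread between libraries. Without knockout 3, the difference in mean log2 level moved from −0.24 to −0.57 for Defa24 and from −0.58 to −0.93 for AY761184. No paired analysis was possible, because the genotypes share only 1 number in the sample titles. Which mice were littermates is not given for each library. The precision rests on 4 libraries a genotype, and sequence shared between copies leaves single members uncertain.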

Other observations

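Pla2g2a, which encodes a secreted phospholipase of Paneth cell granules, had levels that differed far more between libraries than those of any of the 13 abundant members. It had 165753, 7110, 7442 and 317744 counts in controls 1 to 4 and 9193, 7978, 386237 and 314099 in knockouts 1 to 4, so that 2 libraries of each genotype were low. Knockouts 1 and 2, in which the Defa20 group had its highest shares, were among the low libraries, but so were controls 2 and 3, in which its shares were 2.81% and 2.62%.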
